A study of Sus scrofa domesticus with 4 samples.

Results

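Genes of cell adhesion were followed in pig myometrium, which is the uterine smooth muscle, kept as explants with or without orexin A (OXA). The genes were ITGAV, ITGB1 and ITGB3, which encode the integrin subunits alpha-v, beta-1 and beta-3, VCAM1, which encodes vascular cell adhesion molecule 1, SPP1 (osteopontin), CD44 (a hyaluronan receptor) and CTNNB1 (beta-catenin). They were chosen by name, and their probes by the RefSeq transcript that the array design gives for each probe. Probes were found for 6 of the 7 genes, 23 probes in all, out of 6700 probes of 3029 genes that could be named and 43603 probes in total. The accession match gave no probe for CD44, which was not analysed here.

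Integrins are receptors made of an alpha and a beta subunit that join cells to the matrix around them and to ligands on other cells. Alpha-v pairs with several beta subunits, beta-1 and beta-3 among them, and binds matrix proteins that carry an Arg-Gly-Asp motif, such as osteopontin, fibronectin and vitronectin. In the pig uterus, osteopontin made by the epithelium is known as an integrin ligand at the time when the conceptus attaches. Beta-catenin links cadherins to the actin cytoskeleton and is the transcriptional effector of canonical Wnt signalling, and VCAM1 is a ligand of the beta-1 integrin alpha-4 beta-1 on leukocytes.

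The tissue came from 4 mature gilts (Large White x Polish Landrace, aged 7 to 8 months) on days 15 to 16 of gestation. Explants were taken from the middle of the uterine horns, preincubated for 2 h and then cultured for 24 h with OXA or without it. The sample labels give the dose as 10 nM and the design text gives 10 µM. OXA is a neuropeptide that acts through 2 G protein-coupled receptors and is also made outside the brain. Each of 4 dual-colour arrays compared RNA of OXA-treated with RNA of non-treated tissue. Whether 1 animal gave the RNA of both channels is not said in the labels, so the spread between arrays may hold both animal and culture differences.

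Every value below is a log2 ratio of OXA over non-treated, or a processed signal, which is the brightness of a spot after the scanner software's background subtraction and dye normalization, in arbitrary units. By the sample labels, Cy5 marked the OXA tissue on arrays 1 and 3, Cy3 marked it on arrays 2 and 4, and this set the direction. The labelling protocol words it differently, with OXA in Cy5 throughout. Over 19500 tested probes, which are not independent replicates, ratios of arrays 2 and 4, of the same dye orientation, correlated at r = -0.38, and those of arrays 1 and 2 at r = -0.59. Arrays 1 and 4 correlated at r = 0.62. Array 3 correlated at r = 0.23 with array 1, at -0.30 with array 2 and at -0.06 with array 4. The direction of the ratios is therefore not settled, and values with array 2 turned are given beside the results for the adhesion genes and, as a group, for the list genes named. Markers of smooth muscle, the labelled tissue, were well above background on all 4 arrays for the 6 genes tested (ACTA2, DES, CNN1, MYLK, MYL9 and SMTN).

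The comparison asks which adhesion genes differ in transcript level between explants kept with OXA and those kept without. With the dyes as labelled, ITGAV and VCAM1 had the lowest mean ratios of the 6 genes on their brightest probes, at -0.63 ± 0.85 and -0.64 ± 0.63 (SD, n = 4). CTNNB1 had -0.28 ± 0.32, ITGB3 had -0.12 ± 0.81, ITGB1 had -0.07 ± 0.70, and SPP1 had 0.18 ± 0.21 (SD, n = 4). In bulk RNA like this, fewer cells of a type and less RNA per cell cannot be told apart. For ITGAV, ITGB1, ITGB3, SPP1 and CTNNB1 the SD was larger in size than the mean, and for VCAM1 it was about as large. None of the 23 probes passed the test: limma's lowest adjusted p was 0.998, and 0 of 23 had an unadjusted p under 0.05. Among all 19505 tested probes limma called 0% at an adjusted p under 0.05, and 1.2% passed the same threshold before adjustment. Fits that left out 1 array gave all 23 probes the same standard error. Their p-values and counts therefore do not measure each probe's own spread. Once array 2 was dropped, 1093 probes (5.6%) were called, and 0 of the 23 were among them.

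All 23 probes were well above background in both channels of all 4 arrays, as were 15300 of the 19505 tested probes. None of the 23 was saturated. The scanner software's own error of a single ratio was 0.20 to 0.24 on the log2 scale for these probes. Of their 92 single-array ratios, 45 (48.9%) were larger in size than 2 such errors, beside 42.2% for all tested probes. An exact two-sided sign test on 4 arrays cannot give a p below 0.125.

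**Figure D1:**
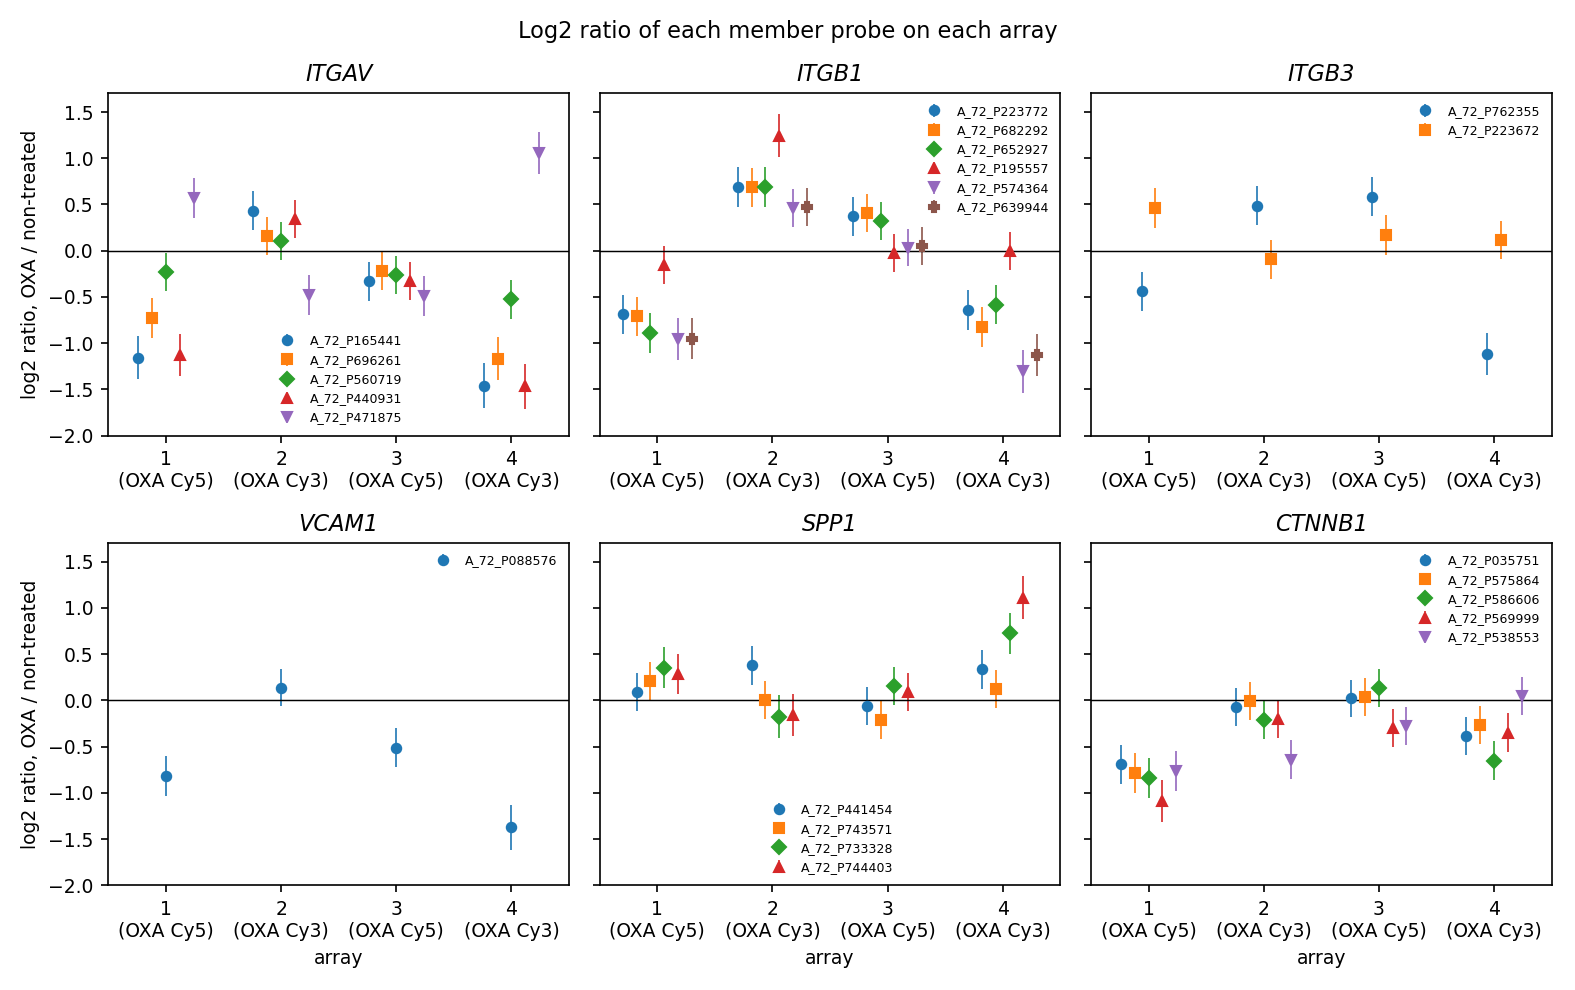
Log2 ratio of OXA over non-treated for each of the 23 probes, with the array and the dye of OXA on the x axis. Bars are the scanner software's error of a single ratio. The ITGB1 probes lie below 0 on arrays 1 and 4 and above 0 on array 2, and VCAM1 lies below 0 on arrays 1, 3 and 4.

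Among the integrin subunits, ITGAV had 5 probes (transcript NM_001083932). The non-treated signal of the brightest, A_72_P165441, was 6783, 4228, 7725 and 14789 on arrays 1 to 4. The OXA signal was 3042.5, 5712, 6137 and 5376. Non-treated tissue was the higher of the pair on arrays 1, 3 and 4 and the lower on array 2, and the signals of the groups overlapped. The log2 ratios were -1.16, 0.43, -0.33 and -1.46, with a mean 1.55-fold lower with OXA and a 95% confidence interval from -1.58 to 0.32 (limma, adjusted p = 0.998). The probes A_72_P440931, A_72_P696261 and A_72_P560719 had the same signs on each array, with means of -0.64 ± 0.81, -0.49 ± 0.58 and -0.23 ± 0.26 (SD, n = 4).

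The fifth ITGAV probe, A_72_P471875, went the other way on 3 arrays. Its ratios were 0.57, -0.48, -0.49 and 1.06, so that on arrays 1, 2 and 4 it had the opposite sign to the other 4 probes. The OXA signal was 430, 325, 251 and 810, and the non-treated signal was 289, 454, 353 and 389. On array 4 the 5 ITGAV probes ranged from -1.47 to 1.06. Averaged over the 5 probes, ITGAV had -0.36 ± 0.35 (SD, n = 4). Turning array 2 gave a limma estimate of -1.05 for the brightest probe (adjusted p = 0.0983). That fit weighs both dye orientations equally, so array 4, alone in its orientation, counts as much as arrays 1 to 3 together. Without array 2 the estimate was -1.10. Without array 4 it was -0.16, so the size of the ITGAV value rests on arrays 2 and 4. The plain mean with array 2 turned was -0.85 ± 0.55 (SD, n = 4). If Cy5 held the OXA tissue throughout, the mean was -0.12 ± 1.11 (SD, n = 4).

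ITGB1 encodes the most widely shared beta subunit and had 6 probes (NM_213968). On its brightest probe, A_72_P223772, the non-treated signal was 49451.5, 28693.5, 33214 and 65752 on arrays 1 to 4, and the OXA signal was 30702, 46180, 42961 and 42138. OXA was the lower of the pair on arrays 1 and 4 and the higher on arrays 2 and 3. The ratios were -0.69, 0.69, 0.37 and -0.64, with a confidence interval of the mean from -0.92 to 0.79 (limma, adjusted p = 0.998). The probes went together within an array. On array 1 all 6 were negative, from -0.95 to -0.16, and on array 4 all 6 were negative, from -1.31 to -0.01. On array 2 all 6 were positive, from 0.46 to 1.25, and on array 3 they ran from -0.03 to 0.41, with 5 of 6 positive. The probe means ran from -0.44 to 0.26, and the mean over the 6 probes was -0.14 ± 0.72 (SD, n = 4). The sign of the brightest probe's estimate rests on single arrays: it was 0.20 without array 1, 0.26 without array 4, -0.40 without array 2 and -0.33 without array 3. Turning array 2 gave -0.49 (limma, adjusted p = 0.292).

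ITGB3, the partner of alpha-v in the vitronectin receptor, had 2 probes (NM_214002) that did not go together. The probe A_72_P762355 had non-treated signals of 200983, 123809, 92496 and 289492 and OXA signals of 148138, 173750, 138374 and 133732. The OXA signals spanned less than the non-treated ones, which lay on both sides of them. Its ratios were -0.44, 0.49, 0.58 and -1.11, with a confidence interval of the mean from -1.02 to 0.78 (limma, adjusted p = 0.998). The probe A_72_P223672 had ratios of 0.46, -0.09, 0.17 and 0.12, with a mean of 0.16 ± 0.23 (SD, n = 4). It had OXA signals of 432, 521, 289 and 1032 and non-treated signals of 313, 557, 257 and 952. The sign differed between the 2 probes on arrays 1, 2 and 4. The mean of both probes was 0.02 ± 0.38 (SD, n = 4), so the sign of the gene depends on the probe. Their levels also lay far apart, with mean OXA signals of 148498 for A_72_P762355 and 569 for A_72_P223672. Which of them measures the ITGB3 transcript was not tested, and values given for the gene elsewhere are those of A_72_P762355. The estimate for A_72_P762355 was -0.62 with array 2 turned, and it was 0.13 without array 1, 0.28 without array 4, -0.52 without array 2 and -0.38 without array 3. It was 0.19 if Cy5 held the OXA tissue throughout.

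VCAM1, an immunoglobulin-type receptor of endothelium and stroma that holds leukocytes, had 1 probe, A_72_P088576 (NM_213891). The non-treated signal was 11276, 9855, 14670.5 and 12295 on arrays 1 to 4. The OXA signal was 6383, 10848, 10288 and 4744. The OXA signals varied more, with an SD of 2975 around 8066, than the non-treated ones, with an SD of 2028 around 12024. The ratios were -0.82, 0.14, -0.51 and -1.37, so OXA was the lower of the pair on 3 of 4 arrays, and the value on array 2 was smaller than the spot error of 0.20. The mean was 1.56-fold lower with OXA, with a confidence interval from -1.46 to 0.17 on the log2 scale (limma, adjusted p = 0.998). Before adjustment VCAM1 ranked first of the 23 probes by p and 814 among the 19505. Its estimate with array 2 turned was -0.93 (adjusted p = 0.104), and without array 2 it was -1.02. Without array 4 it was -0.26, and the plain mean with array 2 turned was -0.71 ± 0.52 (SD, n = 4). If Cy5 held the OXA tissue throughout, the mean was -0.02 ± 0.97 (SD, n = 4).

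SPP1 encodes osteopontin, a secreted ligand of alpha-v integrins and of CD44, and had 4 probes (NM_214023). On the brightest, A_72_P441454, the non-treated signal was 2229, 1903, 4980 and 3273 and the OXA signal was 2366, 2472, 4765 and 4124 on arrays 1 to 4. Both channels were higher on arrays 3 and 4 than on arrays 1 and 2. The ratios were 0.09, 0.38, -0.06 and 0.33, with a confidence interval of the mean from -0.43 to 0.80 (limma, adjusted p = 0.998). The probe A_72_P743571 had a mean of 0.03 ± 0.18, A_72_P733328 had 0.26 ± 0.38, and A_72_P744403 had 0.33 ± 0.55 (SD, n = 4). All 4 probe means were positive, and each probe was negative on 1 array. All 4 probes were positive on arrays 1 and 4, while on arrays 2 and 3 there were 2 of each sign. The highest ratio was 1.11, for A_72_P744403 on array 4. If Cy5 held the OXA tissue throughout, the brightest probe had -0.17 ± 0.22 (SD, n = 4). With array 2 turned its limma estimate was 0.11, and its plain mean was -0.0054 ± 0.30 (SD, n = 4), with 2 of 4 arrays negative. The sign then depends on how the arrays are weighted. It also depends on the probe, as A_72_P743571, A_72_P733328 and A_72_P744403 then had plain means of 0.03 ± 0.18, 0.35 ± 0.26 and 0.41 ± 0.47 (SD, n = 4).

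CTNNB1, the cadherin-bound and Wnt-responsive beta-catenin, had 5 probes (NM_214367), and their means were all negative, from -0.48 to -0.26. The brightest, A_72_P035751, had non-treated signals of 33421, 22551.5, 21062 and 38243 and OXA signals of 20689, 21511, 21373 and 29268. OXA was the lower of the pair on arrays 1, 2 and 4, and on arrays 2 and 3 both channels were nearly equal. The ratios were -0.69, -0.07, 0.02 and -0.39 (confidence interval of the mean from -0.95 to 0.39, limma, adjusted p = 0.998). The probe A_72_P569999 was negative on all 4 arrays, with -1.09, -0.20, -0.30 and -0.35. It was the 1 of 23 probes (4.35%) with this pattern, beside 3.76% of all tested probes, and 0 of 23 were positive on all 4 arrays, beside 3.96%. A_72_P586606 had a mean of -0.39 ± 0.44 and A_72_P575864 had -0.26 ± 0.38 (SD, n = 4). A_72_P538553 had -0.41 ± 0.37, with 0.04 on array 4. The 5 probes differed among themselves by an SD of 0.15 to 0.25 on each array. Averaged over the 5 probes, CTNNB1 had -0.83, -0.23, -0.08 and -0.32 on arrays 1 to 4, a mean of -0.37 ± 0.33 (SD, n = 4). The brightest probe had -0.29 with array 2 turned (limma, adjusted p = 0.472), and it had -0.10 without array 1 and -0.46 without array 3. If Cy5 held the OXA tissue throughout, it had -0.05 ± 0.45 (SD, n = 4).

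**Figure D2:**
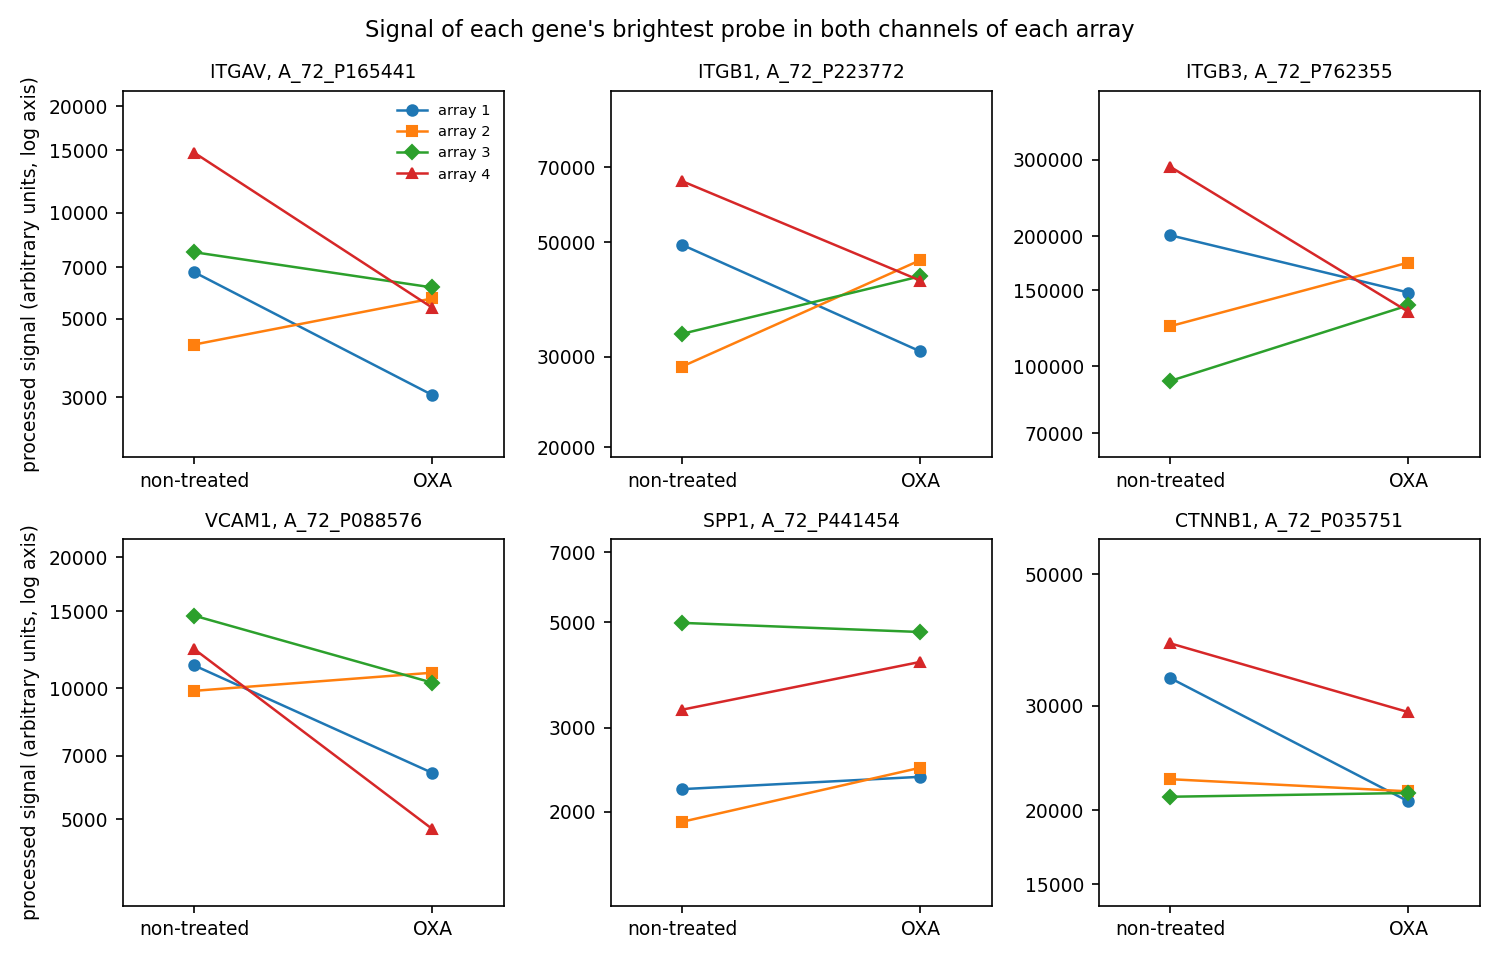
Processed signal of the brightest probe of each gene in the non-treated and the OXA channel, on a log axis, with 1 line for each array. Lines of ITGAV and VCAM1 slope down on arrays 1, 3 and 4 and up on array 2, while the lines of SPP1 are spread by array more than they slope.

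The genes also differed in how far their overall level varied between arrays. For each probe the log2 level was averaged over both channels and set against the median of the tested probes of that array. The SD of this level over the 4 arrays was 0.06 to 0.21 for the 6 ITGB1 probes and 0.37 for the median tested probe. The brightest ITGB1 probe spanned 1.15-fold between arrays. The 4 SPP1 probes had SDs of 0.43 to 0.49 and were highest on array 3, and the brightest spanned 2.05-fold. For A_72_P441454 this SD of 0.49 was above the SD of its OXA ratio, 0.21. The same order held for 3 of the 4 SPP1 probes, and A_72_P744403 had 0.46 against 0.55. For the brightest ITGB1 probe it was the reverse, with 0.09 against 0.70. VCAM1 had 0.43 and its level was lowest on array 4. The brightest probes of ITGAV and CTNNB1 had 0.30 and 0.18.

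Arrays 1 and 4 gave the same sign for 22 of the 23 probes (95.7%), beside 77.6% of all tested probes. Arrays 1 and 2 gave the same sign for 7 of 23 (30.4%), beside 25.7%. The probes of a gene share a transcript, so these counts hold at most 6 independent genes. Negative ratios on arrays 1, 3 and 4 with a positive one on array 2 were seen for 6 of 23 probes (26.1%), of ITGAV, VCAM1 and ITGB1, and for 17.8% of all tested probes. The opposite pattern was seen for 3 of 23 (13%), of SPP1 and ITGB3, and for 17.7%. With array 2 turned, 7 of 23 probes (30.4%) had an unadjusted p under 0.05 in limma, beside 27% of all tested probes, and 0 of 23 were called, as were 0% of all. Without array 2, 6 of 23 (26.1%) had an unadjusted p under 0.05, beside 19.3%. On array 1 the median of the 23 probes was -0.71, on array 2 0.14, on array 3 0.02 and on array 4 -0.52. The medians of all tested probes lay between -0.05 and 0.01.

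**Figure D3:**
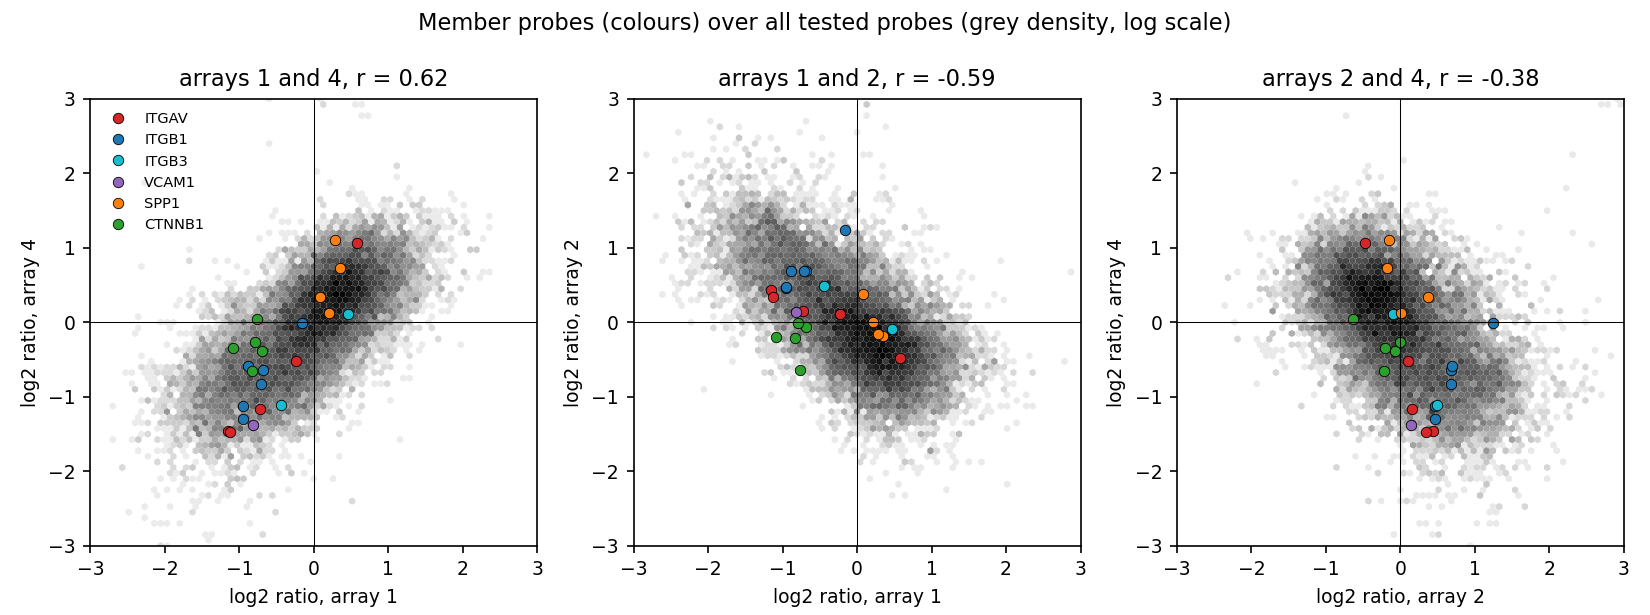
Log2 ratios of the 23 probes, coloured by gene, over the density of all tested probes (grey, log scale) for arrays 1 and 4, 1 and 2, and 2 and 4. The probes fall along the same diagonals as the other probes, with r = 0.62, -0.59 and -0.38 across all tested probes.

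Other genes of these pathways were read from lists, each gene by its brightest tested probe. In none of the 6 lists did limma call a gene in either direction. Beside them, the 1985 named genes had medians of 0.25, -0.22, 0.02 and 0.29 on arrays 1 to 4, and 38.8% had a negative mean. The 6 genes followed here had medians of -0.69, 0.41, -0.02 and -0.88, and 5 of the 6 had a negative mean. With array 2 turned the plain means of the brightest probes were negative for 29.9% of named genes and for all 6 adhesion genes, SPP1 at -0.0054. Other probes were then positive, with 0.03, 0.35 and 0.41 for SPP1, 0.21 for ITGB3 and 0.41 for ITGAV's A_72_P471875. If Cy5 held the OXA tissue throughout, the plain means of the brightest probes were negative for 39.3% and for 5 of 6, with ITGB3 positive.

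Of 22 other integrin subunits, 7 had a named probe and 5 were tested, and all 5 means were positive, with a median of 0.17. ITGA2, an alpha subunit of a collagen receptor, had ratios of 0.66, 1.08, 0.38 and 0.59, positive on all 4 arrays. Its mean was 0.68 ± 0.29 (SD, n = 4; limma, adjusted p = 0.998), and its other probe had 0.79. It was the 1 gene of this list to pass 0.05 before adjustment. It did not pass with array 2 turned or if Cy5 held the OXA tissue throughout (-0.16). Nor did it pass after normexp and loess (0.41) or loess without background subtraction (0.40). Leaving out 1 array gave ITGA2 estimates of 0.55 (without array 2) to 0.80 (without array 4). ITGB5, a partner of alpha-v, had 0.0022, 0.040, 0.12 and 0.55 on arrays 1 to 4, with a mean of 0.18 ± 0.25 (SD, n = 4). The values on arrays 1 to 3 were smaller than 0.20, the lowest spot error of all tested probes. Without array 4 its estimate was 0.05. ITGB6, another partner of alpha-v, and ITGAL were too dim to be tested. Of 28 matrix ligands, 11 were tested, 4 with positive and 7 with negative means. FBN1, which encodes fibrillin-1, had -0.66 ± 0.92, with -1.97 on array 2. It was well above background on 3 of 4 arrays in the OXA channel, and its estimate was -0.30 after normexp and loess. CTGF, a matricellular integrin ligand, had 0.47 ± 0.31 (SD, n = 4).

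Of 17 immunoglobulin-type adhesion molecules and selectins, 7 were tested, 5 with positive and 2 with negative means. ICAM1, which holds leukocytes through beta-2 integrins, had 0.53, 0.47, 0.35 and 0.46 on arrays 1 to 4. Its mean was 0.45 ± 0.07 (SD, n = 4; limma, adjusted p = 0.998). With array 2 turned the mean was 0.22 ± 0.46 (SD, n = 4), so the small spread holds in the labelled direction only. SELP, the P-selectin of platelets and endothelium, had 0.37 ± 1.14, with 2.03 on array 1. Of 15 genes of hyaluronan metabolism and CD44 partners, 9 were tested, 6 with positive and 3 with negative means. MMP9, a gelatinase that CD44 can hold at the cell surface, had 1.29, -0.20, 1.08 and 1.00, with a mean of 0.79 ± 0.67 (SD, n = 4; limma, adjusted p = 0.998). It too was the 1 gene of its list to pass 0.05 before adjustment. It did not pass if Cy5 held the OXA tissue throughout, where its mean was 0.39 ± 1.04 (SD, n = 4). Leaving out 1 array gave MMP9 estimates of 0.49 (without array 4) to 1.09 (without array 2). MSN, which encodes moesin, a linker of CD44 to actin, had 0.42 ± 0.66.

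Of 21 focal adhesion proteins, 7 were tested, 4 with positive and 3 with negative means. ACTN1, an alpha-actinin that cross-links actin at adhesions, had 0.43, 0.44, 0.36 and 0.47, with a mean of 0.42 ± 0.05 (SD, n = 4; limma, adjusted p = 0.998), and its other probe averaged 0.11. Its mean with array 2 turned was 0.20 ± 0.43 (SD, n = 4). CRK, an adaptor downstream of integrins, had -0.54 ± 0.75, and its 3 probes averaged -0.67 to 0.16. Of 25 cadherin and catenin partners, 7 were tested, 3 with positive and 4 with negative means. CDH1, the epithelial cadherin, had -1.15, 2.06, -1.18 and 1.53, negative on the arrays with OXA in Cy5 and positive on those with OXA in Cy3, and was well above background on 3 of 4 arrays in each channel. JUP, which encodes plakoglobin, a relative of beta-catenin, had -0.26 ± 0.70 (SD, n = 4). With array 2 turned, the plain means of 3 of the list genes named changed sign, to 0.32 ± 1.14 for FBN1, 0.18 ± 0.73 for JUP and -0.72 ± 1.55 for CDH1 (SD, n = 4). Those of ITGA2, ITGB5 and CTGF were then 0.14 ± 0.82, 0.16 ± 0.27 and 0.13 ± 0.61. SELP had 0.30 ± 1.17, MMP9 0.89 ± 0.48, MSN 0.51 ± 0.57 and CRK -0.59 ± 0.70 (SD, n = 4). ITGA2, ITGB5, FBN1, ICAM1, MSN, ACTN1, CRK and CDH1 changed sign if Cy5 held the OXA tissue throughout, ITGA2 to -0.16, ICAM1 to -0.012 and ACTN1 to -0.029.

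Markers of the other cell types that myometrial pieces can hold were read in the same way. Of 6 epithelial markers with a probe, 5 were tested, and CLDN4 was not. Their medians were -1.19, 2.06, -0.90 and 1.87 on arrays 1 to 4, negative with OXA in Cy5 and positive with OXA in Cy3. EPCAM, CDH1 and MUC4 had these signs on all 4 arrays. KRT8 was positive on array 1 (0.30), and LCN2 was negative on all 4 arrays (-1.19, -0.55, -0.27 and -0.47). The summed signal of the epithelial markers ran from 412 to 8121 in the OXA channel and from 952 to 2145 in the non-treated channel. Of the macrophage markers 8 of 8 with a probe were tested, with medians of 0.70, -0.66, 1.98 and 0.73 and summed signals of 1309 to 9092 with OXA and 1424 to 5404 without. The signs of these medians are opposite to those of VCAM1 and of ITGAV's brightest probe on all 4 arrays. They are not particular to macrophage markers. The medians of the 1985 named genes had the same signs (0.25, -0.22, 0.02 and 0.29), and so did 17.7% of all tested probes. AIF1, C1QA, C1QB, C1QC and VSIG4 had the signs of the macrophage medians on all 4 arrays. CD163 had -0.64, 0.30, 1.18 and -0.32, the sign of VCAM1 on arrays 1, 2 and 4. MRC1 was negative on array 4 (-0.29) and CD14 on array 3 (-0.06). The ITGAV probe A_72_P471875 shared the sign of the macrophage medians on arrays 1, 2 and 4. Endothelial markers (5 of 5) had medians of -0.42, -0.35, 0.06 and 0.54, with summed signals of 4412 to 11639 with OXA and 5734 to 8615 without. Fibroblast and stroma markers (3 of 3) had -0.14, -0.43, 0.19 and -0.59, with 40563 to 51064 with OXA and 45591 to 71630 without. Smooth muscle markers (6 of 6) had -0.18, -0.14, 0.32 and -0.45, with 245934 to 566269 with OXA and 225779 to 695182 without. Of 7 lymphocyte markers with a probe, 0 were bright enough to be tested. The part of these cell types in the ratios of the adhesion genes was not tested.

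**Figure D4:**
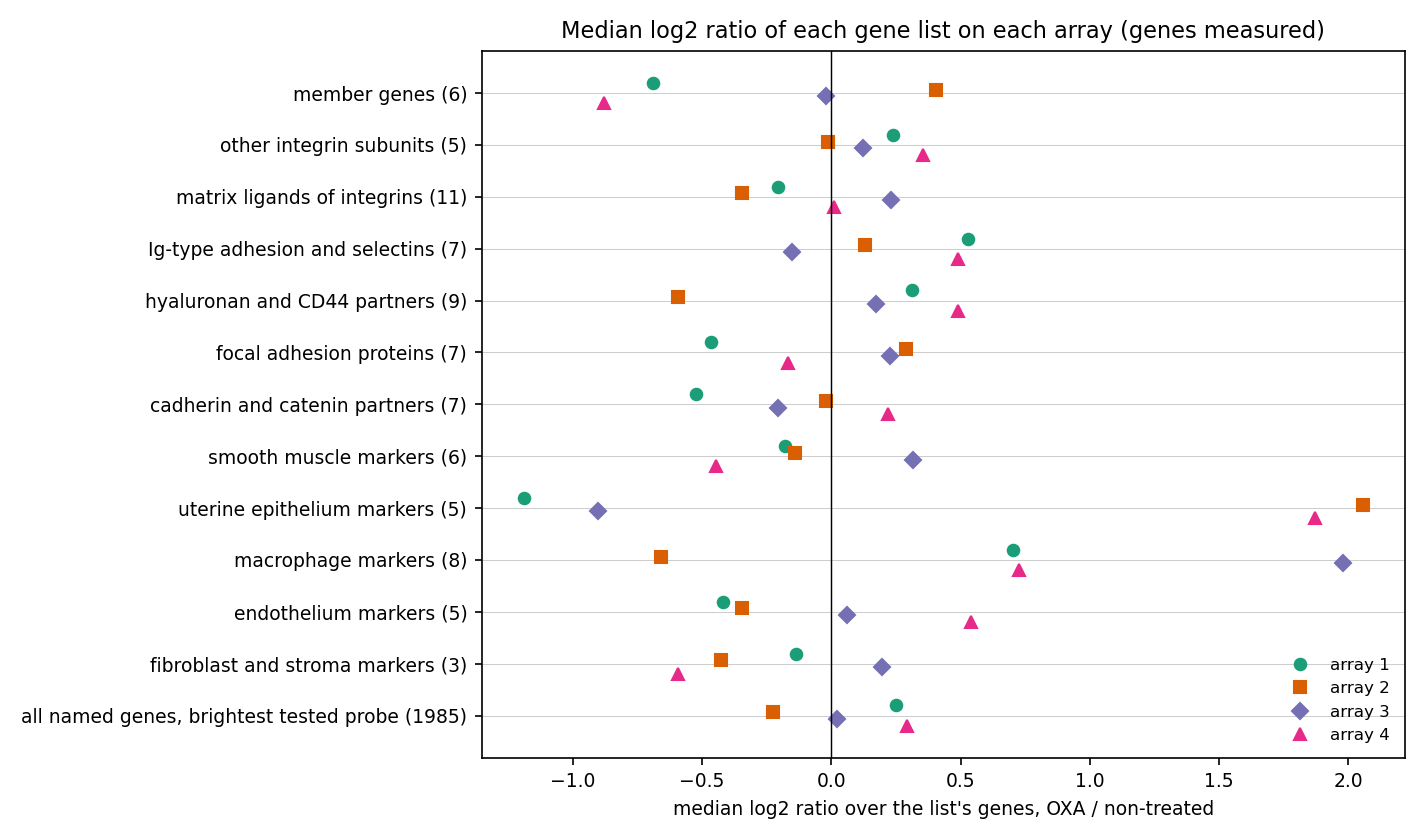
Median log2 ratio of OXA over non-treated over the genes of each list on each array, with the number of genes tested in brackets. The epithelial medians run from -1.19 on array 1 to 2.06 on array 2, a wider range than that of the adhesion genes, from -0.88 to 0.41.

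The genes whose ratios were most like those of each adhesion gene were found among 1979 other named genes by Euclidean distance over the 4 arrays. For ITGAV these were PPP1CB (distance 0.21) and TAF13 (0.46). PPP1CB, a catalytic subunit of protein phosphatase 1, had -1.03, 0.49, -0.17 and -1.42. ITGB1 was nearest to UFL1 (0.21) and MDH1 (0.24), and ITGB3 to TFAM (0.21) and PRRT1 (0.28). VCAM1 had no neighbour as near, with ADD3 at 0.50 and CHUK at 0.50. CHUK, a kinase of the NF-kappaB pathway, had -0.25 on array 2 and so differed from VCAM1 in sign there. SPP1 was nearest to UBE3A (0.15) and to CDC42 (0.18), a small GTPase of the focal adhesion list, with 0.23, 0.29, -0.06 and 0.38. CTNNB1 was nearest to ITM2B (0.12) and CYP39A1 (0.12). With 4 arrays such distances describe these samples alone.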

How the data were processed

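Scanner output came from Agilent Feature Extraction (version 10.7.3.1 in the file headers). The deposited signal intensities of each dye were background-subtracted and dye-normalized by that software before deposit, per the file headers, and median spot and background intensities were kept beside them. The deposited LogRatio and its error were computed by the same software on a log10 scale, per the file headers, and were changed to log2 here. Flags for background and saturation were used as deposited. The deposited value table holds log2 ratios, with column medians of 0.10, 0.10, -0.19 and 0.07. Of the tested probes, 99.9% on each array differed by under 0.001 from the log2 ratio of processed signals, with slopes of 1 on arrays 1 and 3 and -1 on arrays 2 and 4 against Cy5 over Cy3. The table therefore runs as OXA over non-treated by the sample labels. These ratios were used as deposited, with no further centring. All 4 arrays share 1 slide, so precision is limited by 4 arrays and no slide block could be fitted.

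The 1417 control spots were left out. Probes were named by RefSeq accession, without version, through the Sscrofa11.1 gene table, which served for names only, and 36903 probes stayed unnamed here. To be tested, a probe had to be well above background in 1 of the groups on 3 or more of the 4 arrays (19505 probes). limma 3.58.1 in R 4.3.3 fitted a term for OXA and a term for dye (degrees of freedom: 2 residual, 4.1 prior). All p-values are two-sided and Benjamini-Hochberg adjusted over all tested probes. The fit was run on simulated data with independent noise on each array, which does not hold the correlations between arrays seen here. Probes without a value on an array (5 of those tested) were fitted on the others. A gene is represented by its brightest tested probe.

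Named were the adhesion genes, up to 2 genes of each pathway list with the smallest p, and the 2 nearest genes by Euclidean distance. The members, lists and alternatives were chosen with earlier results of these data known. Where nothing says that cultures came from separate animals, p-values measure only the spread between these arrays.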

Additional observations from a re-analysis of the deposited data

Results flagged for a closer look

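Dixon's ratio set 1 array apart from its 3 fellows in 4 of the sets of array values examined (3.74%), where chance does so in about 5%. The log2 ratio of the ITGB1 probe A_72_P195557 was 1.25 on array 2, against -0.16 to -0.01 elsewhere. The log2 ratio of the CTNNB1 probe A_72_P569999 was -1.09 on array 1, against -0.35 to -0.20 elsewhere. The OXA signal of the CTNNB1 probe A_72_P035751 was 29268 on array 4, with 20689 to 21511 on arrays 1 to 3. The OXA signal of A_72_P569999 was 10135 on array 4, with 5471 to 6165 on arrays 1 to 3.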

How the results depend on the processing

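Without array 1, 2, 3 or 4, limma called 1 to 1093 of all probes (1093 without array 2, and 1, 5 and 6 without arrays 1, 3 and 4) and 0 adhesion probes each time. At an unadjusted p under 0.05 with at least 1.2-fold change, 235 probes and 0 adhesion probes passed. All other settings called 0, and all kept the signs of the 6 adhesion genes' estimates except those named here. With OXA in Cy5 on all arrays, 17 of 30 named genes changed sign, to 0.19 for ITGB3, -0.17 for SPP1, -0.16 for ITGA2, -0.12 for ITGB5, 0.56 for FBN1, -0.012 for ICAM1, -0.087 for MSN, -0.029 for ACTN1, 0.080 for CRK, -1.48 for CDH1, 0.0045 for MDH1, 0.26 for TFAM, 0.13 for PRRT1, 0.0073 for ADD3, 0.030 for CHUK, -0.15 for UBE3A and -0.12 for CDC42. With array 2 turned, the limma estimates of FBN1 (0.059) and JUP (0.35) changed sign. The plain means of both changed sign too, as did those of SPP1, UBE3A (-0.033) and CDH1 (-0.72). The mean of both ITGB3 probes was 0.021. Leaving out 1 array gave -1.10 to -0.16 for ITGAV, -1.02 to -0.26 for VCAM1, -0.46 to -0.10 for CTNNB1, 0.15 to 0.22 for SPP1, -0.40 to 0.26 for ITGB1, -0.52 to 0.28 for ITGB3, -0.28 to 1.01 for SELP, -0.66 to 0.13 for JUP, -0.44 to 0.23 for UFL1, -0.43 to 0.19 for MDH1, -0.51 to 0.19 for TFAM and -0.64 to 0.15 for PRRT1. A fit that leaves out an array has 1 array alone in its dye orientation, which is assumed to vary like the others. The causes of these changes were not tested. Each ratio already sets both channels of an array against each other, so the fit is paired within arrays. No further pairing was possible, as there is 1 group of arrays. Background brightness limited the lists, where 5 selectin and adhesion genes could not be tested.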
